A study of Mus musculus with 4 samples.

Results

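The endothelin system of cultured mouse cortical astrocytes was described through 7 genes, which were the rows of the deposited count table whose gene name was Ednrb, Ednra, Edn1, Edn2, Edn3, Ece1 or Ece2. All 7 were present among 45703 genes. Poly-A RNA was sequenced from 4 cultures, numbered 1 to 4 as in the labels, which form 1 group with no contrast, so that the comparisons are between genes within a culture and between the cultures. The cells were primary glia of wild-type CD-1 mice (outbred), from frontal cortex taken at postnatal day 4. They were grown in serum with B27 and 10 ng/ml EGF, passed on day 6 to dishes of 200000 cells each, and used for RNA 3 days later, following 60 min in serum-free Ham's medium. No sorting or antibody step is given, nor the number of mice behind a culture, and the p-values below therefore measure only the spread between these 4 libraries, which may be technical.

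The libraries held 37300485 to 42369109 counts each. Culture 4 stood apart from the others: the common biological coefficient of variation (edgeR's estimate of the spread between libraries beyond counting error) was 10.7% over the 4 cultures and 2.62% without culture 4, so that 3 of the 4 values behind each mean below are close to repeats. All 10 astrocyte markers had at least 1 CPM (a gene's count scaled to a library of 1e6 counts) in every library, from Slc1a3 at 2601 and Gfap at 1339 CPM to S100b at 11.8 and Gjb6 at 2.46 CPM. Other cell types were traced as well. Of 10 microglia markers 9 passed that minimum, as did 8 of 10 fibroblast and 6 of 10 oligodendrocyte lineage markers. The same was true of 5 of 10 mural cell, 5 of 10 neuron and 2 of 10 endothelial markers, where 32.2% of all genes passed. Some of these markers were as high as those of astrocytes: Acta2 (mural) had 1929, Olig1 (oligodendrocyte lineage) 1310 and Col1a2 (fibroblast) 651.7 CPM. The highest microglia marker, Csf1r, had 30.2 CPM. Others of the same lists stayed below the minimum. Sox10 had 0.06 and Mag 0.21 CPM (oligodendrocyte lineage), and Dcn 0.79 and Lum 0.22 CPM (fibroblast). A high level was thus not shared by a whole list.

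Endothelins are short vasoactive peptides. Each is made as a long precursor that furin-type proprotein convertases trim to big endothelin, and an endothelin-converting enzyme then cuts big endothelin to the active peptide. The peptides act on 2 G-protein-coupled receptors that raise cytosolic calcium through Gq and phospholipase C: the A receptor prefers endothelin-1 and endothelin-2, and the B receptor binds all forms about equally. In brain, astrocytes are a main site of the B receptor, whose activation has been tied to loss of gap junction coupling and to reactive gliosis.

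The receptors and ligands turned out to be dominated by 1 gene each (Ednrb and Edn3, below). The 250 bases before the annotated start of these genes and of their weaker relatives Ednra and Edn1 are shown, since this is the DNA next to the starts whose transcripts are compared. The sequences are RefSeq's on GRCm38.p6, 5′ to 3′ on the gene's strand, in lower case. Capitals mark CCAAT boxes on either strand (CCAAT or ATTGG).
Ednrb, chr14:103843702-103843951, minus strand: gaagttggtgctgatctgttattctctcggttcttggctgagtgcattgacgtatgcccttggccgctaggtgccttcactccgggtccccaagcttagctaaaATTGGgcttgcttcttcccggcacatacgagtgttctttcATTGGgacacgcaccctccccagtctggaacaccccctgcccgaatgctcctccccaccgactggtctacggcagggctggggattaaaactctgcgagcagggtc
Ednra, chr8:77724453-77724702, minus strand: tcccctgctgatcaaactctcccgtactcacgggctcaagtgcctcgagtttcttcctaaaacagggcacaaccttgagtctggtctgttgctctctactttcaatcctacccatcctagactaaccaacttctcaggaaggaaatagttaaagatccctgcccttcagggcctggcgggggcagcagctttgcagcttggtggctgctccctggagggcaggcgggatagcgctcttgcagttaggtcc
Edn3, chr2:174760369-174760618, plus strand: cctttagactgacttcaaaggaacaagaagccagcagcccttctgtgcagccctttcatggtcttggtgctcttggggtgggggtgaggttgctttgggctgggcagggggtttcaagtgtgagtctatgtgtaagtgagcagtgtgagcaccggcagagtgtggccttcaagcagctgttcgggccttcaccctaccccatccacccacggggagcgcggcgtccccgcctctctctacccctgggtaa
Edn1, chr13:42301226-42301475, plus strand: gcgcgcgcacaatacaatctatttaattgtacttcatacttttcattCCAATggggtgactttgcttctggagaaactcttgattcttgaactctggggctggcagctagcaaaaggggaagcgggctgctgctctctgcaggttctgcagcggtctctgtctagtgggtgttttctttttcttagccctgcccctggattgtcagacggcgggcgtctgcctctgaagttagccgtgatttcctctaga
All 7 genes had an entry in the promoter table, with 10 starts in all. The Ednrb start used there, at 103843701, lies inside the outer limits of the gene, and the window printed falls in an intron of a longer Ednrb transcript of the GENCODE annotation, so which start these cells used is not shown by gene counts. Letters were searched on both strands for TATAAA (in 12.4% of 32851 promoters of this length), CCAAT (33.8%), GGGCGG (32.7%), TGACTCA (4.46%), AGATAA (9.99%), ACGTG (16.6%), ACAAAG (16.5%) and ACAATG (10.7%), a set chosen after the sequences had been seen. Ednrb held CCAAT 146 and 106 bases before its start, and Edn1 held it 203 bases before. None of the 8 was found in the 250 bases of Ednra or Edn3. In the 50 bases after its annotated start, Edn1 had AGATAA from base 9 and ACGTG from base 22, both on the opposite strand, letters that 1.25% and 3.51% of all starts hold there. GC content was 56.8% for Ednrb, 54.8% for Ednra, 59.2% for Edn3 and 50.4% for Edn1, against a median of 52.4%. A match is a description of letters only.

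Of the 7 genes, 5 reached 1 CPM in every library (both receptors, Edn3, Ece1 and Ece2), against 32.2% of all genes in the table. Edn1 stayed below that minimum and Edn2 was at the limit of detection. Per length, in RPKM (CPM per kilobase of combined exon length), the order of mean levels was Ednrb, Ece1, Edn3, Ece2, Ednra, Edn1 and Edn2. Ednrb stood at 108.1 ± 5.34 RPKM (SD, n = 4) and was above 95.9% of the 14725 expressed genes, while Ece1 was above 51.2%, Edn3 above 30.3%, Ece2 above 28.4% and Ednra above 18.3% of them. Neighbours in this order did not overlap between cultures, with 1 exception: Edn3 was above Ece2 in 3 cultures (1.13 to 1.27-fold) and below it in culture 4 (0.66-fold), so that these were not told apart. That holds for Ece2 as deposited, which is a lower limit: with the counts of an overlapping gene added, as described with the converting enzymes, the Ece2 locus had 5.79 to 7.02 RPKM, above the 1.80 to 4.11 RPKM of Edn3 in every culture.

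**Figure D1:**
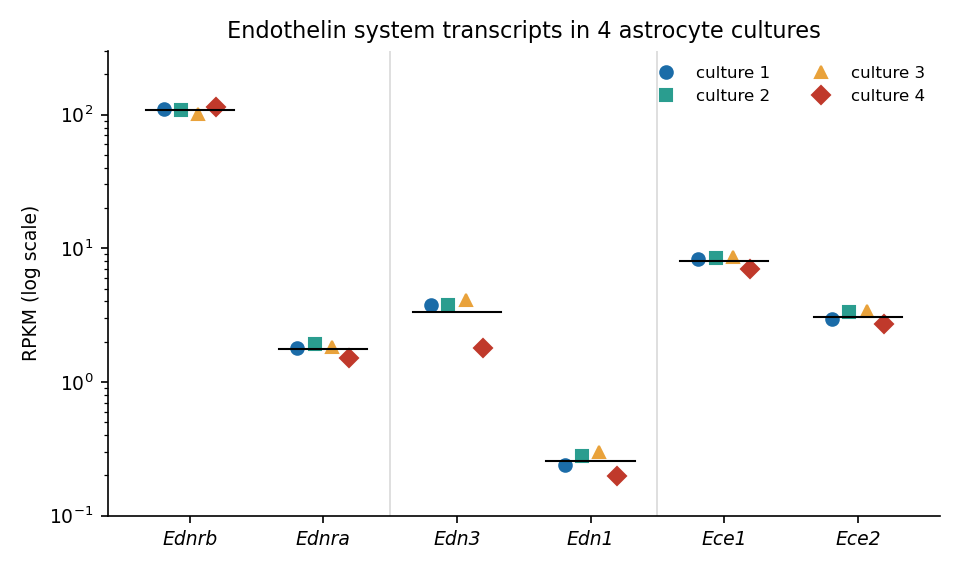
RPKM (log axis) of 6 genes in each of the 4 cultures, with the mean as a black line; Edn2 is left out because it had 1 count in all. Ednrb lies between 100.5 and 112.9 RPKM, far above the other genes, and the 4 points of Edn3 include 1 low value, that of culture 4.

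The B receptor was by far the main endothelin receptor transcript. Ednrb, on chromosome 14 (103814615 to 103844508, minus strand, GRCm38.p6, GeneID 13618), had 484, 476, 441 and 495 CPM in cultures 1 to 4. The cultures differed by 1.12-fold from lowest to highest, with culture 3 lowest and, on this scale only, culture 4 highest. With DESeq2 size factors cultures 1 and 4 were level, at 487.8 and 487.6. Ednra, the A receptor known from vascular smooth muscle (chromosome 8, 77663029 to 77724452, minus strand, GeneID 13617), had 6.57, 7.06, 6.70 and 5.55 CPM, lowest in culture 4. On 235 to 283 counts per library these values carry counting intervals (95%, exact Poisson) from 4.86 to 6.30 CPM in culture 4 and from 6.26 to 7.93 CPM in culture 2, which overlap slightly.

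In RPKM, Ednrb had 110.3, 108.6, 100.5 and 112.9 and Ednra 1.80, 1.94, 1.84 and 1.52. Ednra thus made up 1.62% ± 0.21 of the receptor transcripts per length (SD, n = 4). The ratio of Ednrb to Ednra was 61.1, 56.0, 54.6 and 74.2 in cultures 1 to 4, higher in 4 of 4 libraries. The log2 ratio was 5.93 ± 0.12 (SE; 61.0-fold; edgeR quasi-likelihood test, Benjamini-Hochberg adjusted over 17112 genes each paired with Ednrb, adjusted p = 1.52e-10). By the same test 95.9% of those genes were below Ednrb and 3.13% above it, so that a place below it is the common case. Over the 4 within-library ratios an exact two-sided sign permutation test gave p = 0.13, the smallest that 4 libraries allow, here and for the ratios of Ece1 to Ece2 and of Edn1 to Edn3, and so also after adjustment over the 3. Every pair of a fit holds the same reference gene, so the pairs share their error and the edgeR p-values are too small.

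Among 35 other receptors of a Gq list (taken with earlier results on these data known), only the thrombin receptor F2r reached the level of Ednrb. Receptors outside the list were not ranked. Of the 35, 14 were expressed in every library, 40%, against 32.2% of all genes. The median over the list was 0.36 CPM against 0.03 CPM over all genes of the table. F2r had 135.5 ± 3.02 RPKM, with no overlap with Ednrb between cultures, and was 1.25-fold above it (log2 difference of Ednrb minus F2r -0.33 ± 0.05, SE; edgeR, adjusted p = 0.000247). In CPM, with no length term, the order was the opposite and the values overlapped, at 474.1 ± 23.4 for Ednrb and 452.2 ± 10.1 for F2r. Next in the list came the bradykinin receptor Bdkrb2 (9.96 ± 1.68 RPKM) and the metabotropic glutamate receptor Grm5 (9.78 ± 0.50 RPKM), 10.95-fold and 11.0-fold below Ednrb by the same fit. Ednra, at 1.78 ± 0.18 RPKM, had 9 receptors of the list above it, the nearest being the prostaglandin F receptor Ptgfr at 2.05 ± 0.32 RPKM. The ranges of Ednra and Ptgfr between cultures overlapped.

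**Figure D2:**
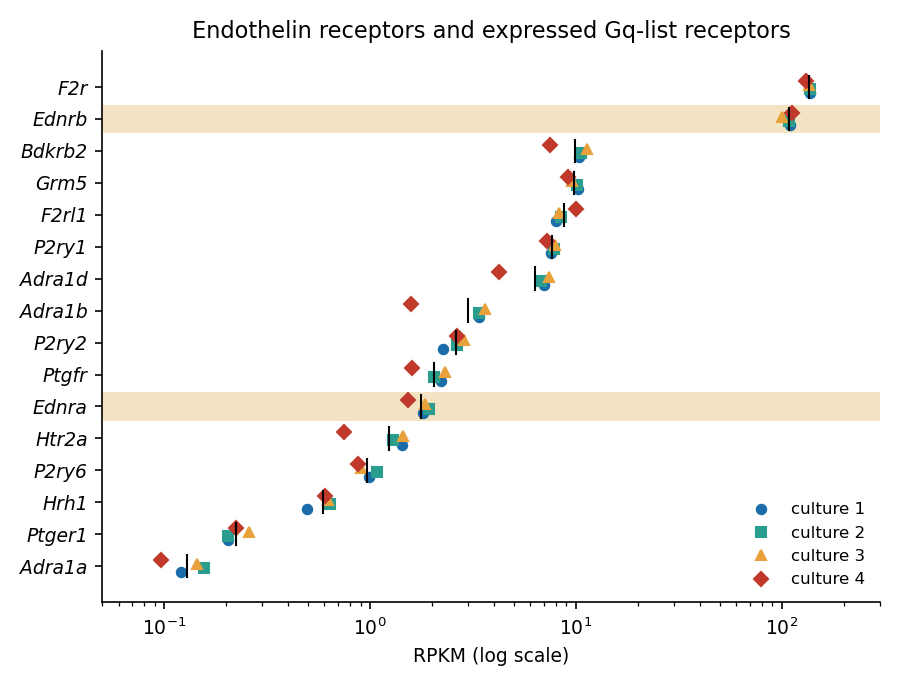
RPKM (log axis) of the endothelin receptors (shaded) and of the 14 Gq-list receptors with at least 1 CPM in every library; points are cultures and black lines are means. F2r (135.5) and Ednrb (108.1) form the top pair, clear of the rest, and Ednra (1.78) lies in the lower part.

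Of the ligands, endothelin-3 was the main transcript. Edn3, the ligand that acts with Ednrb in neural crest development (chromosome 2, 174760619 to 174784042, plus strand, GeneID 13616), had 479, 468, 478 and 238 counts in cultures 1 to 4. That is 11.7, 11.7, 12.8 and 5.62 CPM, with cultures 1 to 3 together and culture 4 alone at the bottom. Edn1 encodes endothelin-1, best known as the vasoconstrictor of endothelial cells (chromosome 13, 42301476 to 42307990, plus strand, GeneID 13614). It had 21, 24, 24 and 18 counts, or 0.51, 0.60, 0.64 and 0.42 CPM. The exact Poisson intervals of Edn1 run from 0.25 to 0.67 CPM in culture 4 and from 0.41 to 0.96 CPM in culture 3 and overlap between all cultures. A difference of Edn1 between cultures was not tested, and overlap of such wide intervals shows neither a difference nor equal levels.

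Edn3 made up 92.5% ± 1.68 of the ligand transcripts per length and Edn1 7.42% ± 1.72 (SD, n = 4). Edn3 was 15.7, 13.4, 13.7 and 9.07-fold above Edn1 in cultures 1 to 4. The log2 ratio of Edn1 to Edn3 was -3.70 ± 0.12 (SE; 13.0-fold; edgeR, adjusted over 17112 pairs with Edn1, adjusted p = 2.82e-191). That p-value rests on pairs that all hold the same few Edn1 counts, and its size should not be read; 90.2% of genes were above Edn1 by this test and 5.03% below it. DESeq2 gave -3.69 ± 0.23 (SE). Edn2, which encodes endothelin-2 (chromosome 4, 120161206 to 120167360, plus strand, GeneID 13615), had 1 count in culture 3 and 0 in the others. For a count of 0 the exact Poisson interval (95%) reached up to 0.09 CPM. On these counts Edn1 was 59.5-fold above Edn2 per length (exact 95% counting interval 10.4 to 2375) and Edn3 780.0-fold (139.8 to 30827).

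Endothelial cells are the usual source of endothelin-1, and their markers were low. Cldn5 had 1 count in all 4 libraries together, Pecam1 0.49, Cdh5 0.12 and Tek 0.05 CPM, and Kdr (6.48 CPM) and Flt1 (5.16 CPM) were the 2 of 10 above the minimum. The summed level of the list was 14.3 to 15.9 CPM in cultures 1 to 3 and 8.57 CPM in culture 4. This drop lay mainly in Flt1, with 6.06 to 6.58 and 1.53 CPM. Kdr had 6.50 to 6.91 and 5.62 CPM. For mural cells, where Ednra is typical, the summed level was 3042 to 3223 CPM in cultures 1 to 3 and 2937 CPM in culture 4. Acta2 (1929 CPM) and Tagln (1019 CPM) made up most of it, and Notch3 (104.6 CPM), Pdgfrb (28.5 CPM) and Rgs5 (7.47 CPM) were expressed in every library as well. The other 5 of the 10 were below the minimum, with Myh11 at 0.64, Anpep at 0.61, Des at 0.37, Abcc9 at 0.09 and Kcnj8 at 0.06 CPM. No marker of either list was at 0 in every library. Their part in the levels of Edn1 and Ednra was not tested.

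Both converting enzymes were transcribed, and Ece1 led, by a margin that depended on how the reads of the Ece2 locus were assigned. Ece1 (chromosome 4, 137862237 to 137965229, plus strand, GeneID 230857) had 42.4, 43.3, 44.1 and 35.7 CPM in cultures 1 to 4, lowest in culture 4. Ece2, whose enzyme works at acidic pH (chromosome 16, 20629851 to 20645915, plus strand, GeneID 107522), had 9.24, 10.4, 10.5 and 8.48 CPM. In RPKM Ece1 stood at 8.09 ± 0.75 and Ece2 at 3.09 ± 0.31 (SD, n = 4), and the ratio was 2.81, 2.56, 2.56 and 2.57 in the 4 cultures. The log2 ratio was 1.39 ± 0.08 (SE; 2.62-fold, higher in 4 of 4 libraries; edgeR, adjusted over 17112 pairs with Ece1, adjusted p = 2.28e-07; 54.4% of genes were below Ece1 and 38.8% above it). Without the length term it was 4.28-fold (edgeR, adjusted p = 1.43e-08).

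The table also lists Eef1akmt4-ece2, an annotated readthrough gene (20611601 to 20645915 on the same strand) that ends at the same base as Ece2 and contains it. It had 427, 455, 426 and 408.5 counts against 379.5, 415.5, 393 and 359.5 for Ece2, and counts that end in 0.5 are what a read divided between 2 features gives. How many reads the genes shared was not given, so the deposited value is a lower limit for the transcripts of the Ece2 locus. With the counts of both genes summed over the Ece2 length, an upper limit, the locus had 6.51 ± 0.58 RPKM, and Ece1 was 1.32, 1.22, 1.23 and 1.20-fold above it in cultures 1 to 4. The log2 ratio was then 0.31 ± 0.07 (SE; 1.24-fold; edgeR, adjusted p = 0.00238), and with cultures 1 to 3 summed as 1 sample 0.30 ± 0.26 (edgeR, adjusted p = 0.28). The size of the lead was thus nearly the same, and the call was lost in that fit of 2 samples. Both settings were chosen after seeing the data.

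**Figure D3:**
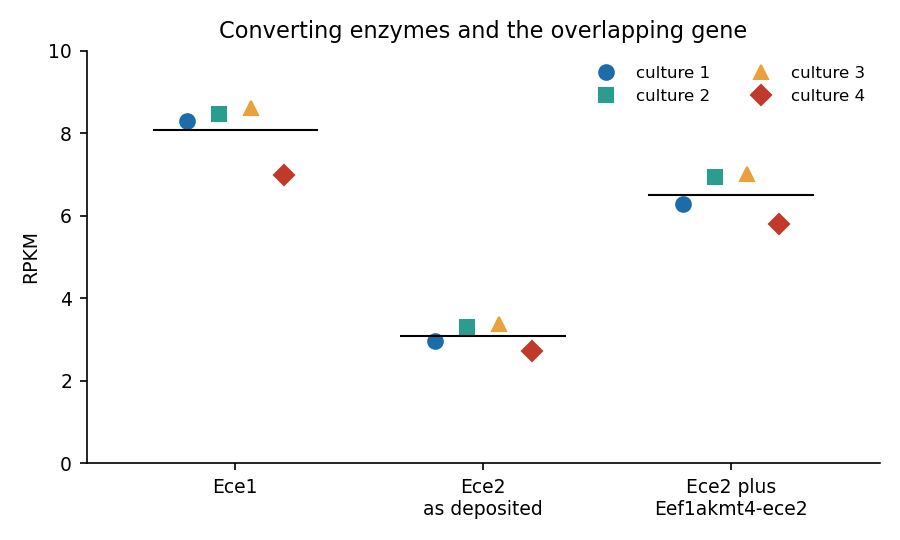
RPKM of Ece1, of Ece2 as deposited, and of Ece2 with the counts of the overlapping gene Eef1akmt4-ece2 added over the Ece2 length; points are cultures, black lines are means. Ece1 (mean 8.09) is clear of Ece2 as deposited (3.09), and the summed locus (6.51) comes close to it, with overlapping ranges.

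The other members overlapped only antisense long non-coding genes that carried next to no counts. Gm35197 across Ednrb had 17.5 counts over the 4 libraries, LOC108167319 at Ednra had 1, Gm13012 within Ece1 had 2, and the remaining 4 had 0.

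The upstream enzymes of the pathway were present. Of 7 proprotein convertases 6 were expressed in every library, with a median of 2.46 CPM over the list. Furin, which trims precursors in the Golgi, led at 16.6 ± 0.92 RPKM and was 2.06-fold above Ece1 (edgeR, adjusted p = 6.16e-07), ahead of Pcsk6 (5.98 ± 1.24 RPKM) and Pcsk7 (5.19 ± 0.11 RPKM). The neuroendocrine convertase Pcsk1 was below the minimum, at 0.24 ± 0.05 CPM. Of 10 peptidases related to the converting enzymes or able to cut endothelins, 3 were expressed, 30%, close to the 32.2% of all genes, with a median of 0.38 CPM. They were the insulin-degrading enzyme Ide (50.5 ± 3.38 RPKM), the lysosomal Ctsa (48.1 ± 3.06 RPKM), both above Ece1, and neprilysin (Mme, 5.99 ± 0.55 RPKM), below it by 1.35-fold (edgeR, adjusted p = 0.00362). In culture 4 Ece1 and Mme were close, at 6.98 and 6.78 RPKM. With no length term Ece1 had 41.4 ± 3.85 and Mme 40.3 ± 3.67 CPM, and Mme was the higher in culture 4. Ecel1, named for its likeness to Ece1, had 0.32 ± 0.18 CPM. The mast cell and neutrophil proteases Cma1, Mcpt4 and Ctsg, and Kel, were at 0 counts in every library.

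Most listed genes of the signalling chain below the receptors passed the minimum in every library, where 32.2% of all genes did. Of 10 G protein alpha subunits 9 passed the minimum, with a median of 139.5 CPM: Gnai2 (397.7 ± 15.2 RPKM), Gnas (113.5 ± 5.50 RPKM) and Gna12 (55.8 ± 1.73 RPKM) had the highest levels. The Gq subunits Gna11 and Gnaq had 36.8 ± 0.81 and 22.5 ± 0.74 RPKM. Of 7 phospholipase C beta and IP3 receptor genes 6 passed, with a median of 20.1 CPM, led by Plcb3 (30.1 ± 0.95 RPKM), Itpr1 (5.68 ± 0.42 RPKM) and Itpr2 (3.72 ± 0.35 RPKM). Of the genes named in this chain only Gnai2 had more transcript per length than Ednrb by the edgeR test, and for Gnas the difference did not pass it (log2 difference of Ednrb minus Gnas -0.07 ± 0.06, SE; adjusted p = 0.27). All 12 genes of receptor desensitisation (receptor kinases, arrestins and RGS proteins) passed, with a median of 21.8 CPM, led by Grk2 (30.7 ± 0.58 RPKM), Rgs16 (23.4 ± 3.11 RPKM) and Grk6 (22.6 ± 1.21 RPKM).

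Across the cultures, Edn3 was the member that varied. Its biological coefficient of variation was 27.0%, above 97.5% of the 17113 genes kept, and 3.03% without culture 4. Over the 4 cultures Ednrb had 6.75% (above 16.8% of genes), Ece1 9.76%, Ece2 11.4%, Ednra 12.4% and Edn1 13.6%. This order rested on culture 4: without it Ednrb had 3.06% (above 76.4% of genes), Ece1 2.36%, Ece2 3.49%, Ednra 2.95% and Edn1 0.99%, and Edn3 no longer stood out. No gene had a value below that of Edn1, which rests on 21 to 24 counts per library. Its 0.99% should therefore not be read as a steady level. In culture 4, Edn3 was 2.14-fold below the mean of the other 3 (log2 difference -1.10), with Poisson intervals of 4.93 to 6.38 CPM in culture 4 and 10.6 to 14.0 CPM over cultures 1 to 3. It was the only one of 6 members more than 1.5-fold away from the others in any culture. Of the 14725 expressed genes, 4.49% were lower and 2.08% higher in culture 4 by more than that, and 0.869% were lower by more than Edn3. These are values of 1 library against 3, with no test.

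In culture 4, 5 of 6 members had their lowest level: Ednra (log2 difference -0.29), Edn1 (-0.45), Ece1 (-0.28) and Ece2 (-0.24) beside Edn3. Of these, only Edn3 and Ece1 had an exact Poisson interval in culture 4 clear of those in all other cultures. The interval of Ednra in culture 4 overlapped those of cultures 1 to 3, and that of Ece2 those of cultures 1 and 2. Edn1 overlapped in all cultures, on 18 counts in culture 4 and 21 to 24 in the others. Of the 5 expressed members 4 were lowest there, against 34.6% of expressed genes. In CPM Ednrb was highest there (0.09), as were 47.6% of expressed genes. Scaled by DESeq2 size factors in place of library sums, Ednrb was level in cultures 1 and 4, at 487.8 and 487.6. Each of these differences other than that of Edn3 was under 1.5-fold. In cultures 1 to 3 no member deviated by more than 1.5-fold; of expressed genes, 0.278%, 0.109% and 0.177% were lower and 0.224%, 0.285% and 0.306% higher by that much.

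**Figure D4:**
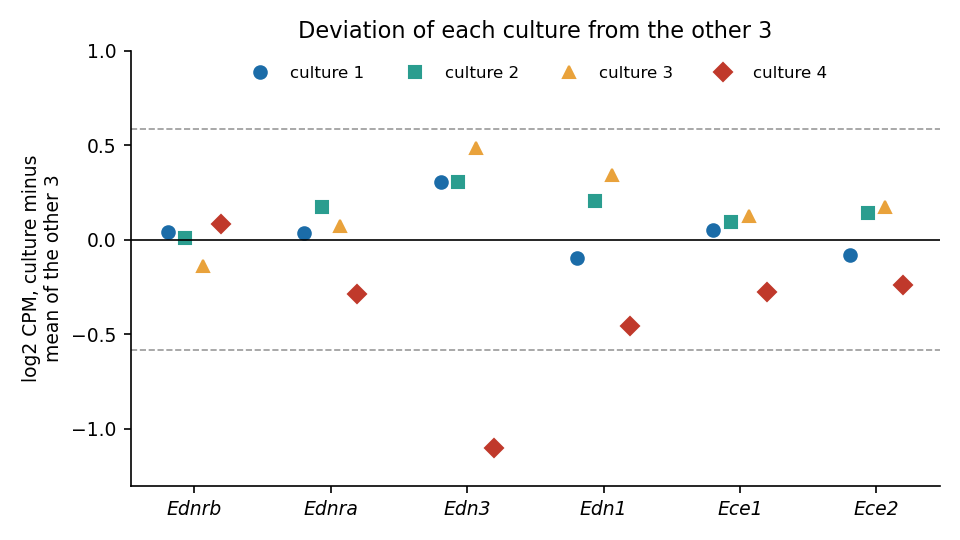
Difference of each culture's log2 CPM from the mean of the other 3, for 6 genes; dashed lines mark 1.5-fold. Edn3 in culture 4, at -1.10, is the only point outside them, and culture 4 is the lowest point for every gene but Ednrb.

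Several cell type and state lists were also lower in culture 4. The summed level of the fibroblast markers was 1561 to 1654 CPM in cultures 1 to 3 and 613 CPM in culture 4. Of 8 expressed markers 5 were lower, all of them collagen genes (Col1a1 at 570 to 623 and at 72.4 CPM). The others were higher: Fbln1 at 27.7 CPM against at most 10.7, Pdgfra at 20.5 against at most 13.5, and Twist1 at 9.79 against at most 9.17. Microglia markers summed to 143 to 152 and 90.3 CPM, with 9 of 9 expressed markers lower. The reactive astrocyte list summed to 6481 to 6586 and 5108 CPM with 10 of 10 lower. The astrocyte list summed to 7322 to 7502 and 6315 CPM with 6 of 10 lower. Gfap fell most in CPM, with 1498 to 1555 and 779.7 CPM. Aldh1l1, Aldoc, Slc1a2 and Sox9 were higher in culture 4. Aldoc had 700.0 CPM there against at most 631.8, and Slc1a2 368.0 against at most 311.0. Proliferation markers were higher, with 10 of 10 up, at 1847 to 1858 and 2526 CPM. Of all expressed genes, 6351 of 14725 were lower in culture 4, with a median log2 difference of 0.04. The part of these cells or states in the level of Edn3 was not tested, and in bulk RNA fewer cells of a type and less RNA per cell cannot be told apart.

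**Figure D5:**
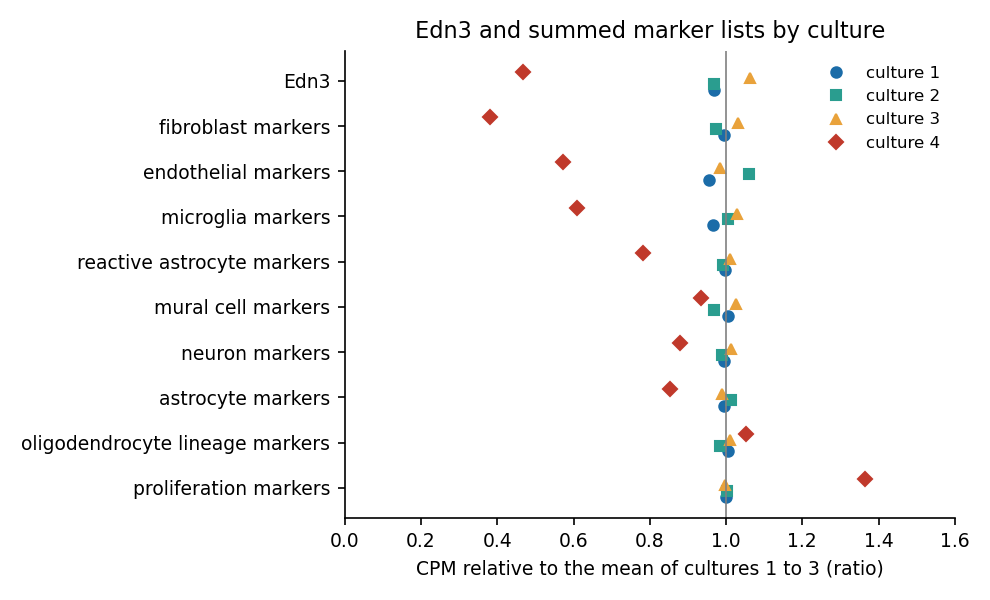
Level of Edn3 and summed CPM of 9 marker lists in each culture, divided by the mean of cultures 1 to 3. In culture 4 Edn3 (5.62 CPM) lies low, as do the fibroblast (613 CPM), endothelial (8.57 CPM) and microglia (90.3 CPM) sums, while the proliferation sum (2526 CPM) is high. The drop of the fibroblast sum lies in its collagen genes and that of the endothelial sum mainly in Flt1.

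The genes whose profile over the 4 cultures lay nearest to that of Edn3, by Euclidean distance of log2 deviations from the gene's mean, were Bcl3 (0.03), Olfml3 (0.04) and Ecm1 (0.04). Olfml3 had 23.1, 23.4, 25.4 and 10.9 CPM and Ecm1 59.1, 60.6, 64.3 and 28.0 CPM, and 24 genes lay within a distance of 0.1. Nearest to Ednrb were Nmd3, Ptges3 and Psmc6, each at about 0.01, but 1634 genes lay within 0.1 of it, since its profile is nearly flat. Over 4 cultures, of which 3 are close to repeats, such likeness is mostly the step in culture 4. The genes nearest to Ednrb in mean RPKM were the proteasome subunit Psmc1 (107.9), C1qbp (108.3) and the calcium-binding S100a16 (107.5).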

How the data were processed

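Poly-A RNA of 4 cultures was sequenced after a stranded library preparation with 14 PCR cycles from 500 ng of RNA with an integrity number above 9.3, per the labels' protocols. The deposited table holds estimated counts per gene, of which 31.7% of those above 0 are not whole. Tools listed in the submitters' processing notes are STAR 2.7.2b, featureCounts 1.6.4 (Subread), cutadapt 1.17 and bcl2fastq 2.20.0.422, with the build GRCm38.p6. The step each one served, the strand setting and the division of shared reads were not given in the sources used here. Combined exon length is another deposited column.

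CPM used the raw library sums, and RPKM the deposited length, which covers all annotated exons and so understates a gene that uses a short transcript. Counts were rounded for edgeR 4.0.16 and DESeq2 1.42.0 (R 4.3.3). For a ratio, each gene kept by edgeR's filter was paired with the reference gene, with terms for library and gene, two-sided, at an adjusted threshold of 0.05. Totals of 3 counts or fewer are a floor, and intervals cover counting error only, since PCR reads are not independent molecules. Named genes were the members, the 3 of each pathway list with the highest RPKM, list genes above the member of their kind, and nearest neighbours in profile or level. Others, such as markers, Gna11, Gnaq, Pcsk1, Pcsk2, Ecel1 and Ptgfr, were named after their values were seen. The members and lists were chosen with earlier results of these data known. Alternatives changed the length, scaling, filter, tool, minimum and libraries. Sequences are from RefSeq (GRCm38.p6), and no protein sequence was used here.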

Additional observations from a re-analysis of the deposited data

Results flagged for a closer look

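Of 9 quantities tested for a sample far from the rest of its group (the CPM of 6 members and 3 log2 ratios), 2 had a gap above the critical value for 4 samples, and chance alone gives about 1 in 20. Edn3 in culture 4, at 5.62 CPM, was far below cultures 1 to 3. The log2 ratio of Ece1 to Ece2 in culture 1, at 1.49, was above the other cultures, which lay between 1.35 and 1.36. The gap rule takes no account of counting error, and Ece2 rested on 359.5 to 415.5 counts per library.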

How the results depend on the processing

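No paired analysis was possible because the series has 1 group. The ratios of Ednrb to Ednra and of Edn1 to Edn3 kept their direction and call in every setting run, with log2 values of 5.84 to 5.98 and -3.82 to -3.60 when single cultures were left out. Ece1 over Ece2 did so too (1.36 to 1.40), except with the overlapping gene's counts added and cultures 1 to 3 summed as 1 sample, at 0.30 (edgeR, adjusted p = 0.28). Over the alternatives adjusted p was otherwise at most 0.00238. Edn1 and Edn3 over Edn2 without single cultures were 43.1 to 47.2 and 555.3 to 668.4, with no value without culture 3, which holds the only Edn2 count. The number of members expressed was 5 in every setting. The number of members past 1.5-fold in any culture was 0 to 1 when single cultures were left out, 0 without culture 4. The median coefficient of variation of 6 members was 2.99% to 14.6% when single cultures were left out, the lowest without culture 4, and 19.1% with cultures 1 to 3 summed, against 11.9% as reported, a setting with fewer samples. Coding lengths were planned and not run. Scaling, filter and DESeq2 settings were not run for Edn2, whose total is under the floor. Depth limits Edn1 and Edn2: 1 count was 0.02 to 0.03 CPM.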
